A study of Mus musculus with 12 samples.

Results

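The MAP kinase phosphatases are a family of enzymes encoded by Dusp genes, and 10 of them were followed here by gene symbol among the 24346 genes of the table: Dusp1, Dusp2, Dusp4, Dusp5, Dusp6, Dusp7, Dusp8, Dusp10, Dusp14 and Dusp16. They were measured by RNA sequencing in 12 libraries of wild-type mouse bone-marrow-derived macrophages, obtained by culture of marrow for 7 days in the macrophage growth factor M-CSF. The study addressed the inflammatory response of macrophages under endoplasmic reticulum (ER) stress. Its 4 groups of 3 libraries were tunicamycin plus lipopolysaccharide (LPS), tunicamycin alone, LPS alone and control cells with no treatment. Tunicamycin, which stops N-linked sugars being added to proteins so that they misfold in the ER, was used at 5 ug/ml. In the cells given both agents it preceded by 3 h the LPS, the TLR4 ligand of Gram-negative bacteria, which was used at 1 ng/ml for 3 h. The exposure time of the cells with tunicamycin alone, and any vehicle in the controls, are not given in the sources used here. Nothing says that the replicates came from separate animals or cultures, so p-values measure only the spread between these libraries, which may be technical.

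MAP kinases (ERK, JNK and p38) are switched on by phosphorylation of a threonine and a tyrosine in their activation loop, and the phosphatases of this family remove both groups. TLR4 signalling activates all of these kinases in macrophages, and the phosphatases act as a brake on them that is itself set by transcription. By textbook grouping Dusp1, Dusp2, Dusp4 and Dusp5 encode inducible nuclear enzymes, Dusp6 and Dusp7 encode cytoplasmic enzymes that act on ERK, and Dusp8, Dusp10 and Dusp16 encode enzymes that act on JNK and p38. Dusp14 encodes a small atypical enzyme without the kinase-binding domain of the others. Dusp1 is the member best known in LPS-treated macrophages, where its loss in mice raises cytokine output. Dusp6 transcription is a standard readout of ERK activity.

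Sequences upstream of the starts of Dusp1 and Dusp2, which were highest with LPS, and of Dusp6 and Dusp7, which were highest in control cells, are shown because the results turn on these 4 genes. They come from RefSeq on GRCm38.p6 (mm10), run 5′ to 3′ on the gene's strand, and end just before the annotated start. For Dusp1 the last 47 bases are left out because a GENCODE M21 exon reaches into them. The GENCODE span of Dusp1, 26505590 to 26562128, also reaches further upstream than this RefSeq window. Capitals mark matches to the motifs searched.
Dusp1 (chr17:26508520-26508722, minus strand): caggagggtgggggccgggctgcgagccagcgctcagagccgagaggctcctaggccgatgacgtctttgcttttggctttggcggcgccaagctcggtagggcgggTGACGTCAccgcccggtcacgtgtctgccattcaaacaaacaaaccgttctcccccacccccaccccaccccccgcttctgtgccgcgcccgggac
Dusp2 (chr2:127335909-127336158, plus strand): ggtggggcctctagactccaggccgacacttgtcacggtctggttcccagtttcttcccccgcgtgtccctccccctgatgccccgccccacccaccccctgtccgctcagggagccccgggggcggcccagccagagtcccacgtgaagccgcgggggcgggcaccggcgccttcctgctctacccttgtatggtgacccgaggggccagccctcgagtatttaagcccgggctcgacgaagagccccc
Dusp6 (chr10:99262981-99263230, plus strand): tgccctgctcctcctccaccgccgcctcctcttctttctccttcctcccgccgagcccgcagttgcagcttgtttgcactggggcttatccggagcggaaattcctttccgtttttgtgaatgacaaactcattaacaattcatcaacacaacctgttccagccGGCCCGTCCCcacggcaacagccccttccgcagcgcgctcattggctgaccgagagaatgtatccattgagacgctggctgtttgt
Dusp7 (chr9:106368382-106368631, plus strand): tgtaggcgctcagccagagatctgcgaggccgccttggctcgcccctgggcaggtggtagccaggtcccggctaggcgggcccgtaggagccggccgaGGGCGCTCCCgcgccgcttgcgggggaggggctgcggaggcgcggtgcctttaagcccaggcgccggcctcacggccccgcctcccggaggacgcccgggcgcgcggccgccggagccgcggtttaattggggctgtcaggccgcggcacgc
The motifs were the cyclic AMP response element TGACGTCA, the AP-1 site TGANTCA, the NF-kB site (GGGA, any 4 bases, CC), the C/EBP-ATF composite site TGATGNAAN and the ER stress element (CCAAT, any 9 bases, CCACG), searched on both strands from 250 bases before to 50 bases after each start. A RefSeq window was matched for 9 of the 10 members, all but Dusp4. The palindromic TGACGTCA was in 2 of these 9 windows, those of Dusp1 at position -143 and Dusp8 at -107 and -63, and in 1.79% of all 32851 windows. The NF-kB pattern was in 4 of the 9, those of Dusp1 (at -52, running into the bases left out above), Dusp5, Dusp6 and Dusp7, and in 20.7% of all windows. No member window held TGANTCA, TGATGNAAN or the ER stress element, which 7.81%, 3.95% and 0.119% of all windows held. These are letter matches within a short window and say nothing of binding.

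Values are the authors' FPKM, fragments corrected for transcript length and sequencing yield, so levels can be compared between genes, and the read depth is unknown. A gene was tested if it had at least 1 FPKM in at least 3 libraries, which 10311 genes and 8 members did. Dusp8 and Dusp10 did not. Fold changes are differences of log2(FPKM + 1) between group means, with SE, and understate the change of low genes. A gene was called at a Benjamini-Hochberg adjusted p under 0.05 in limma. Hspa5, the ER chaperone BiP, stood at 13531 ± 1726 FPKM with both agents, 9594 ± 2056 with tunicamycin, 1198 ± 76.4 with LPS and 841 ± 73.2 in control cells (SD, n = 3 each). Tnf, the cytokine tumour necrosis factor, stood at 1048 ± 113, 6.10 ± 0.537, 743 ± 62.4 and 2.94 ± 1.02 FPKM in the same order of groups. Across genes r was 0.973 to 0.986 within a group and 0.889 to 0.951 between groups. The second control library and the third library with both agents stood apart from their groups on the 3rd and 4th principal components, which held 6.85% and 4.02% of the variance. The 10 macrophage markers summed to 14526 to 24224 FPKM in every library. Most of this was Lyz2 and Cd68, which averaged 11380 and 4298 FPKM in control cells. With LPS 1 of the 10 rose and 1 fell, where 18.4% of all genes passed. With tunicamycin 1 rose and 3 fell, where 34.5% passed. With both agents against LPS alone 4 fell and 6 did not pass, where 28.9% passed. Cd14 averaged 1183 FPKM with both agents, 135 with tunicamycin, 1595 with LPS and 288 in control cells. Of the 9 neutrophil markers measured, 3 (Mpo, Elane and Retnlg) were below 1 FPKM throughout. Their sum was 32.5 to 47.7 FPKM with both agents, 27.9 to 48.4 with tunicamycin, 218 to 347 with LPS and 104 to 145 in control cells. The 9 stromal markers summed to 34.2 to 75.5, 43.0 to 61.8, 29.8 to 38.6 and 23.9 to 35.5 FPKM in that order. The neutrophil and stromal sums and some macrophage markers moved with the groups compared below, and their part in the members' changes was not tested. The B cell genes Ms4a1 and Pax5 and the T and NK cell genes Cd8a, Ncr1 and Klrb1c were listed at 0 in every library. All 7 T and NK cell genes were below 1 FPKM throughout. The B cell gene Cd79b averaged 0.390 FPKM with both agents, 1.58 with tunicamycin, 1.22 with LPS and 1.97 in control cells. It was the only B cell gene tested and was called lower with both agents than in control cells. Its part in the members' changes was not tested either. In these bulk samples fewer cells of a type and less RNA per cell cannot be told apart.

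The 10 transcripts together came to 98.9 ± 9.46 FPKM with both agents, 57.0 ± 6.21 with tunicamycin, 156 ± 24.6 with LPS and 120 ± 10.3 in control cells (SD, n = 3 each). Dusp6 and Dusp7, the cytoplasmic ERK phosphatases, held 11.0 ± 1.66% of the summed FPKM with both agents, 10.9 ± 2.42% with tunicamycin, 3.96 ± 1.90% with LPS and 42.6 ± 5.03% in control cells. Dusp1 was the most abundant member in all 12 libraries and held 57.4 ± 1.34%, 75.7 ± 4.10%, 58.7 ± 2.68% and 44.9 ± 4.46% in that order. Dusp2 held 16.1 ± 1.13% with both agents, 4.67 ± 1.75% with tunicamycin, 23.5 ± 2.52% with LPS and 1.41 ± 0.682% in control cells. These shares are descriptions with no test.

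**Figure D1:**
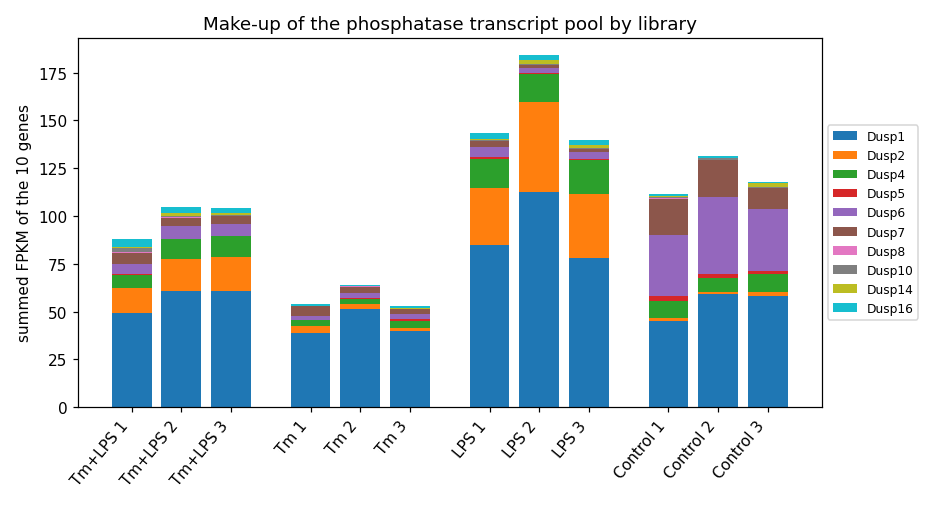
Summed FPKM of the 10 phosphatase genes in each of the 12 libraries, by treatment group (Tm, tunicamycin) and replicate number, with 1 colour per gene. Dusp1 is the largest part of every bar, Dusp6 and Dusp7 are largest in the control bars (42.6 ± 5.03% of the sum), and Dusp2 is large in the LPS bars (23.5 ± 2.52%).

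**Figure D2:**
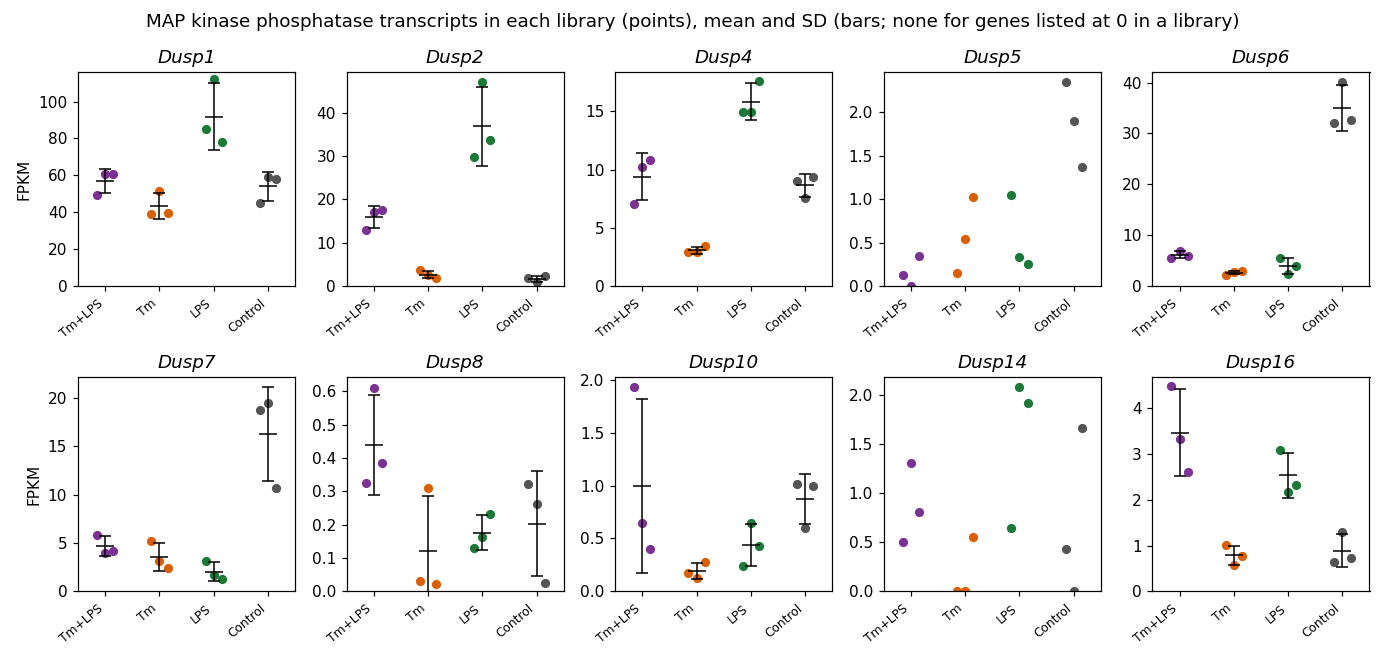
FPKM of each of the 10 genes (vertical axis, its own scale for each gene) in the 4 groups, with 1 point per library and bars for the mean and SD of 3. No bars are drawn for Dusp5 and Dusp14, which are listed at 0 in some libraries. Dusp6 and Dusp7 are highest in the control libraries, and Dusp1, Dusp2 and Dusp4 in the LPS libraries.

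LPS alone split the family. Against control cells Dusp1, Dusp2, Dusp4 and Dusp16 rose and Dusp5, Dusp6 and Dusp7 fell, so 7 of the 8 tested members passed, where 18.4% of all genes tested did (10.5% higher and 7.86% lower). Of the calls among all genes 57.2% were higher, and 48.0% with quantile normalization. Dusp14 did not pass. Libraries with LPS and without it were fully separate for 7 of the 8 tested members, against 33.7% of all genes. The median log2 difference of the 8 was 0.70, against 0.00 for all genes tested. Dusp2 (chromosome 2, 127336159 to 127338376, plus strand), which encodes the nuclear phosphatase PAC-1, had 29.7, 47.2 and 33.7 FPKM in the LPS libraries and 1.81, 0.849 and 2.31 FPKM in the control libraries. Every LPS library was far above every control library, and Dusp2 rose 14.4-fold (log2 3.85 ± 0.25, adjusted p = 4.75e-09), the 53rd largest change of the 10311 genes. Dusp1 (chromosome 17, 26505590 to 26562128, minus strand), the classical immediate-early member, had 85.0, 112 and 77.9 FPKM with LPS and 44.9, 59.3 and 58.0 FPKM in control cells. Its rise was smaller, 1.68-fold (log2 0.75 ± 0.16, adjusted p = 0.00239), although no LPS library was as low as any control library. Dusp4 (chromosome 8, 34807297 to 34819894, plus strand), another nuclear enzyme, stood at 14.9, 15.0 and 17.7 FPKM with LPS and at 9.05, 7.52 and 9.35 FPKM in control cells. It rose 1.75-fold (log2 0.81 ± 0.19, adjusted p = 0.0053). Dusp16 (chromosome 6, 134715468 to 134792625, minus strand), whose enzyme acts on JNK and p38, had 3.09, 2.17 and 2.34 FPKM with LPS and 0.649, 1.30 and 0.720 FPKM in control cells. Its groups did not overlap, and it rose 1.88-fold (log2 0.91 ± 0.24, adjusted p = 0.0121). This call was lost without control replicate 1 (adjusted p = 0.0549) and without LPS replicate 1 (adjusted p = 0.0613).

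The phosphatases dedicated to ERK went the other way with LPS. Dusp6 (chromosome 10, 99263231 to 99267489, plus strand) had 5.43, 2.40 and 3.87 FPKM in the LPS libraries and 32.0, 40.2 and 32.7 FPKM in the control libraries. The groups were far apart, and Dusp6 fell 7.55-fold (log2 -2.92 ± 0.22, adjusted p = 2.78e-08). Dusp7 (chromosome 9, 106368632 to 106375724, plus strand), the relative of Dusp6 with the same kinase and location in the cell, had 3.12, 1.64 and 1.31 FPKM with LPS and 18.7, 19.4 and 10.6 FPKM in control cells. Control replicate 3 was the lowest control library but still above every LPS library, and Dusp7 fell 5.71-fold (log2 -2.51 ± 0.29, adjusted p = 5.20e-06). Dusp5 (chromosome 19, 53529109 to 53542431, plus strand), a nuclear enzyme specific to ERK, had 1.05, 0.339 and 0.251 FPKM with LPS and 2.35, 1.89 and 1.37 FPKM in control cells. It fell 1.88-fold (log2 -0.91 ± 0.28, adjusted p = 0.0284). At these low levels the call depended on the settings, since it was lost with a pseudocount of 0.1 (adjusted p = 0.127) and without control replicate 1 (0.115), control replicate 2 (0.0692), LPS replicate 2 (0.102) or LPS replicate 3 (0.115). GENCODE M21 lists an antisense gene over each of Dusp5 and Dusp16. It lists 4 genes that overlap the span of Dusp1, with Ergic1 and Gm8225 on the opposite strand. Opposite-strand genes also overlap Dusp8 (Gm32786) and Dusp10 (1700056E22Rik). No source used here says whether strand was used in counting.

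No tested member rose with tunicamycin alone, either after adjustment in limma or at an unadjusted p under 0.05 (0 of 8 in each). Dusp4, Dusp5, Dusp6 and Dusp7 fell against control cells, so 4 of the 8 tested members passed, where 34.5% of all genes did (17.9% higher and 16.6% lower). The libraries did not overlap for 4 of the 8, against 48.2% of all genes, and the median log2 difference of the 8 was -0.66, against 0.03 for all genes. Dusp6 had 2.24, 2.68 and 2.86 FPKM with tunicamycin against 32.0 to 40.2 FPKM in control cells. The fall was 9.98-fold (log2 -3.32 ± 0.22, adjusted p = 9.29e-09), the 18th largest change of the 10311 genes. Dusp7 had 5.15, 3.16 and 2.37 FPKM with tunicamycin against 10.6 to 19.4 FPKM in control cells. It fell 3.79-fold (log2 -1.92 ± 0.29, adjusted p = 8.02e-05). Dusp4, which LPS raised, had 2.89, 2.90 and 3.42 FPKM with tunicamycin against 7.52 to 9.35 FPKM in control cells. It fell 2.36-fold (log2 -1.24 ± 0.19, adjusted p = 8.24e-05), and its tunicamycin libraries were close together. Dusp5 had 0.149, 0.537 and 1.02 FPKM with tunicamycin, and its fall against control cells (log2 -0.89 ± 0.28, adjusted p = 0.0192) was lost with a pseudocount of 0.1 (0.081) and without control replicate 1 (0.0755), tunicamycin replicate 1 (0.0984) or tunicamycin replicate 2 (0.0505). Dusp1 had 38.9, 51.3 and 39.6 FPKM with tunicamycin, overlapping the control libraries. Its difference was log2 -0.32 (95% interval -0.65 to 0.01, adjusted p = 0.131). Dusp2 had 3.60, 2.53 and 1.79 FPKM with tunicamycin and also overlapped control cells (log2 0.47, 95% interval -0.07 to 1.00, adjusted p = 0.167). Dusp16, at 1.01, 0.572 and 0.768 FPKM with tunicamycin, differed from control cells by log2 -0.07 (95% interval -0.58 to 0.43, adjusted p = 0.844).

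Tunicamycin before LPS lowered each of the nuclear members that LPS alone had raised. With both agents against LPS alone Dusp1, Dusp2 and Dusp4 were lower and Dusp7 was higher, which is 4 of 8 tested members where 28.9% of all genes passed (13.8% higher and 15.1% lower). The libraries did not overlap for 5 of the 8, against 40.3% of all genes, and the median log2 difference of the 8 was -0.40, against 0.00 for all genes. Dusp1 had 49.2, 60.5 and 60.8 FPKM with both agents against 77.9 to 112 FPKM with LPS. It was 1.59-fold lower (log2 -0.67 ± 0.16, adjusted p = 0.00407) and passed in all 20 alternatives. Dusp2 had 13.0, 17.2 and 17.7 FPKM with both agents against 29.7 to 47.2 FPKM with LPS. No library of the combined treatment reached the lowest LPS library, and Dusp2 was 2.21-fold lower (log2 -1.14 ± 0.25, adjusted p = 0.00279). Dusp4 had 7.06, 10.3 and 10.8 FPKM with both agents against 14.9 to 17.7 FPKM with LPS. This was 1.64-fold lower (log2 -0.71 ± 0.19, adjusted p = 0.00884), again without overlap. The changes of Dusp2 and Dusp4 also passed in all 20 alternatives each.

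Of the cytoplasmic ERK phosphatases, Dusp7 was higher with both agents than with LPS alone and Dusp6 did not pass. Dusp7 had 5.84, 3.99 and 4.21 FPKM with both agents against 1.31 to 3.12 FPKM with LPS, 1.92-fold higher (log2 0.94 ± 0.29, adjusted p = 0.0219). That call was lost with no filter on low values (adjusted p = 0.0672) and on leaving out LPS replicate 2 (0.0714) or 3 (0.0917) or the first library with both agents (0.08). Dusp6 had 5.53, 6.93 and 5.95 FPKM with both agents, all just above the highest LPS library at 5.43 FPKM, but did not pass (log2 0.58, 95% interval 0.12 to 1.05, adjusted p = 0.0552). It passed with a filter at 5 FPKM (adjusted p = 0.0466) and without LPS replicate 1 (0.0156). Dusp16 had 4.49, 3.32 and 2.60 FPKM with both agents, overlapping the LPS libraries (log2 0.33, 95% interval -0.18 to 0.83, adjusted p = 0.335). Dusp5, at 0.131, 0 and 0.350 FPKM with both agents, did not pass either (log2 -0.39, 95% interval -0.97 to 0.20, adjusted p = 0.319).

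**Figure D3:**
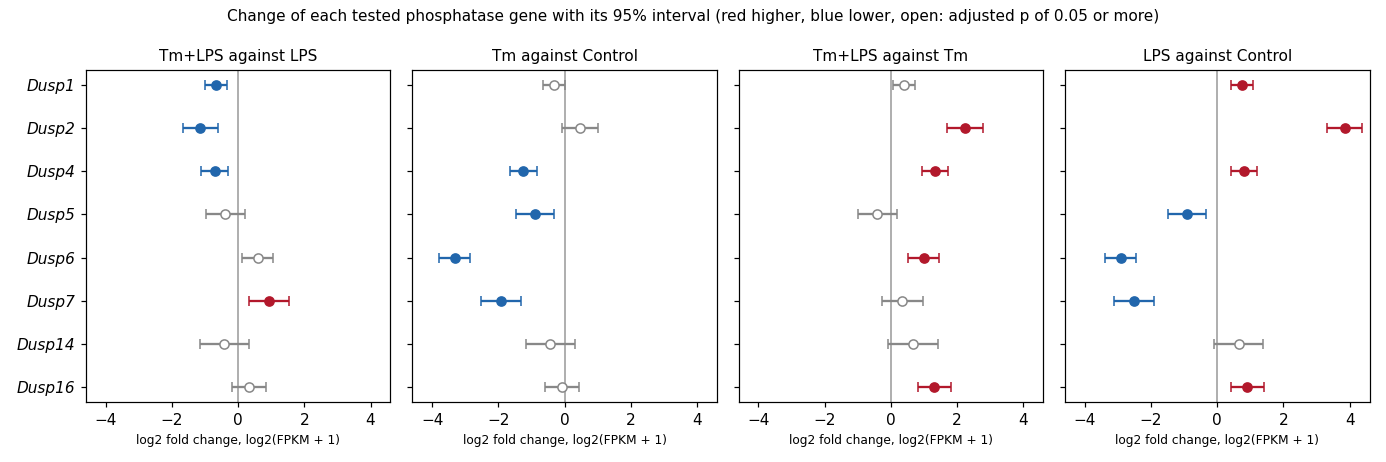
Log2 fold change on the log2(FPKM + 1) scale (horizontal axis) of the 8 tested genes in 4 comparisons, with 95% intervals from limma. Tm is tunicamycin, red is higher, blue is lower and open points did not pass. Dusp6 and Dusp7 lie far to the left against control cells with tunicamycin (-3.32 and -1.92) and with LPS (-2.92 and -2.51), while Dusp1, Dusp2 and Dusp4 lie left of 0 for both agents against LPS.

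With both agents against tunicamycin alone no tested member was lower, after adjustment in limma or at an unadjusted p under 0.05 (0 of 8 in each). The tunicamycin exposure of the cells without LPS is not given, so in this comparison and in the interaction below LPS and any difference in the time with tunicamycin cannot be told apart. Dusp2, Dusp4, Dusp6 and Dusp16 were higher with both agents than with tunicamycin alone. That is 4 of 8 tested members, where 15.7% of all genes passed (8.69% higher and 7% lower). Among all genes 55.4% of the calls were higher, and 44.9% with quantile normalization. The libraries did not overlap for 4 of the 8, against 31.7% of all genes, and the median log2 difference of the 8 was 0.83, against -0.01 for all genes. Dusp2 rose 4.72-fold (log2 2.24 ± 0.25, adjusted p = 6.50e-06), Dusp4 2.52-fold (log2 1.33 ± 0.19, adjusted p = 7.66e-05) and Dusp16 2.48-fold (log2 1.31 ± 0.24, adjusted p = 0.00102). Dusp6 rose 1.98-fold (log2 0.99 ± 0.22, adjusted p = 0.00505), with 5.53 to 6.93 FPKM with both agents against 2.24 to 2.86 FPKM with tunicamycin alone. Dusp1 did not pass (log2 0.39, 95% interval 0.06 to 0.72, adjusted p = 0.107), and neither did Dusp7 (log2 0.35, 95% interval -0.26 to 0.96, adjusted p = 0.471).

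The difference made by LPS was unequal with and without tunicamycin for 3 members, on the assumption of equal exposure to tunicamycin. It was tested as the interaction, which 3.37% of all genes passed (1.41% higher and 1.96% lower). Dusp6 was higher by log2 0.99 with both agents than with tunicamycin and fell by 2.92 on the log2 scale with LPS alone, a difference of log2 3.90 ± 0.31 (adjusted p = 1.10e-06) that was the 7th largest of the 10311 genes. It passed in all 19 alternatives run, with adjusted p from 7.32e-07 to 0.000135. For Dusp7 the LPS effects were log2 0.35 with tunicamycin and log2 -2.51 without it, a difference of log2 2.86 ± 0.41 (adjusted p = 0.000465), the 23rd largest. It also passed in all 19 alternatives. The scale has a floor of 0 at 0 FPKM. The sum of the separate LPS and tunicamycin effects would put Dusp6 at log2 -1.07 and Dusp7 at log2 -0.37. So at least log2 1.07 and 0.37 of their interactions follow from the floor, and its part in their ranks was not tested. With a pseudocount of 0.1 these sums lie above the floor of log2 -3.32, at log2 -1.77 and -1.19, and the interactions were log2 4.41 and 3.42. Dusp2 was raised less with tunicamycin present (log2 2.24) than without it (log2 3.85), a difference of log2 -1.61 ± 0.36 (adjusted p = 0.0173). That call was lost with no filter on low values (adjusted p = 0.0721) and without LPS replicate 2 (0.0603). For Dusp1 the difference was log2 -0.35 (95% interval -0.82 to 0.11, adjusted p = 0.498), and for Dusp4 it was log2 0.53 (95% interval -0.03 to 1.09, adjusted p = 0.376), so that an unequal LPS effect was not shown for either gene. Dusp5, Dusp14 and Dusp16 did not pass, with adjusted p of 0.607, 0.991 and 0.645.

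**Figure D4:**
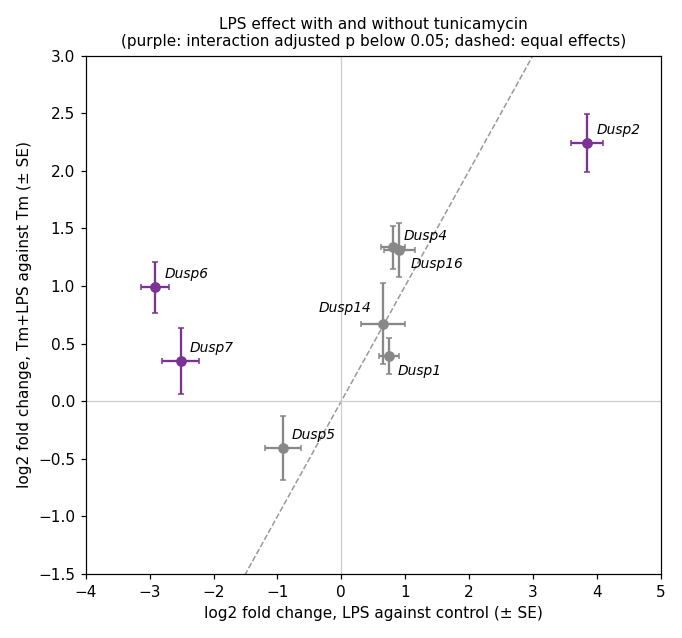
LPS effect in tunicamycin-treated cells (vertical axis) against the LPS effect in untreated cells (horizontal axis), both as log2 fold change with SE, for the 8 tested genes. The axes have different scales. Dusp6 and Dusp7 lie far above the dashed line of equal effects and left of 0, Dusp2 lies below it, and these 3 passed the interaction test (purple).

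Set against control cells, the combined treatment left 2 members higher and 3 lower, where 40.8% of all genes passed (20.7% higher and 20.2% lower). Dusp2 was 6.52-fold higher (log2 2.71 ± 0.25, adjusted p = 2.43e-07) and Dusp16 2.36-fold higher (log2 1.24 ± 0.24, adjusted p = 0.000534). Dusp6 was 5.03-fold lower (log2 -2.33 ± 0.22, adjusted p = 2.71e-07), Dusp7 2.98-fold lower (log2 -1.57 ± 0.29, adjusted p = 0.000342) and Dusp5 2.47-fold lower (log2 -1.30 ± 0.28, adjusted p = 0.0012). Dusp1 and Dusp4 did not pass, at log2 0.07 (95% interval -0.26 to 0.40) and log2 0.09 (95% interval -0.30 to 0.49). The median log2 difference of the 8 was 0.08, against 0.00 for all genes, and the libraries did not overlap for 5 of the 8, against 47.9% of all genes.

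The order of the mean levels differed between members. Dusp1 averaged 56.8 FPKM with both agents, 43.2 with tunicamycin, 91.7 with LPS and 54.1 in control cells. LPS came first in this order, then both agents, control cells and tunicamycin, and only the first 2 of these neighbours differed beyond their spread. Dusp4 ran in the same order, with means of 9.39 FPKM with both agents, 3.07 with tunicamycin, 15.9 with LPS and 8.64 in control cells, and here tunicamycin also differed from control cells. Dusp2 averaged 16.0 FPKM with both agents, 2.64 with tunicamycin, 36.9 with LPS and 1.65 in control cells, and tunicamycin and control cells did not differ beyond their spread. Dusp6 averaged 6.13 FPKM with both agents, 2.59 with tunicamycin, 3.90 with LPS and 35.0 in control cells. Dusp7 averaged 4.68, 3.56, 2.03 and 16.3 FPKM in the same groups. Control cells came first for both genes and for Dusp5 and differed from the next group. Neighbours among the 3 treated groups did not pass, although Dusp6 with both agents lay wholly above LPS (adjusted p = 0.0552 in limma). Treated groups that were not neighbours did differ for 2 of these genes in limma. Dusp6 differed between both agents and tunicamycin (adjusted p = 0.00505), and Dusp7 between both agents and LPS (0.0219). Dusp16 averaged 3.47 FPKM with both agents, 0.783 with tunicamycin, 2.53 with LPS and 0.888 in control cells. Both agents and LPS did not differ beyond their spread, nor did tunicamycin and control cells. No neighbours in the order of Dusp14 differed beyond their spread. Tunicamycin set against LPS, which this order needs, passed for Dusp1, Dusp2, Dusp4, Dusp14 and Dusp16, all lower with tunicamycin, where 37.1% of all genes passed (19.6% lower). The libraries of these 5 did not overlap between tunicamycin and LPS, against 51.8% of all genes.

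The remaining members were barely expressed. Dusp14 (chromosome 11, 84048041 to 84069261, minus strand) had 0.502, 1.31 and 0.806 FPKM with both agents, was listed at 0 in 2 of 3 tunicamycin libraries and at 0.551 in the other, and had 0.645, 2.08 and 1.92 FPKM with LPS. In control cells it was listed at 0 in replicate 2 and stood at 0.429 and 1.67 FPKM in the others. Its groups overlapped except for tunicamycin against LPS (log2 -1.09 ± 0.35, adjusted p = 0.0226), a call that was lost with no filter on low values (0.0562) and without LPS replicate 2 (0.0917), LPS replicate 3 (0.0802), tunicamycin replicate 1 (0.0765) or tunicamycin replicate 2 (0.0803). Dusp10 (chromosome 1, 184013302 to 184075636, plus strand), whose enzyme acts on JNK and p38, had 1.94, 0.647 and 0.398 FPKM with both agents, 0.169, 0.122 and 0.272 with tunicamycin, 0.239, 0.643 and 0.428 with LPS, and 1.02, 0.599 and 0.999 in control cells. All tunicamycin libraries were below all control libraries and all libraries with both agents. Dusp8 (chromosome 7, 142079490 to 142095843, minus strand), of the same substrate group, never exceeded 0.610 FPKM, and its lowest value was 0.0212 FPKM. Dusp8 and Dusp10 were below the filter and were not tested. With a pseudocount of 0.1 some fold changes of the low members were over 1.5 times as large, such as log2 1.45 for Dusp16 with LPS against control cells, log2 -1.78 for Dusp5 in the same comparison and log2 -2.99 for Dusp14 with tunicamycin against LPS.

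Other genes of the ERK pathway were examined from lists of general pathway knowledge. The ERK output list was meant for genes whose transcription follows ERK activity. It also holds Elk1 and Elk3, whose transcription is not a standard readout of it. Elk3 averaged 3.76 FPKM with tunicamycin and 9.42 in control cells, and Elk1 3.52 and 3.49. Of the 14 genes in the list 9 were tested, and the counts include Elk1 and Elk3. With tunicamycin alone 0 rose, 6 fell and 3 did not pass, with a median log2 difference of -1.13, where 34.5% of all genes passed (16.6% lower) with a median of 0.03. Etv5, an ETS factor, had 5.96, 6.56 and 3.43 FPKM with tunicamycin and 49.0, 48.7 and 48.7 FPKM in control cells (log2 -3.02 ± 0.18, adjusted p = 3.73e-09). Ccnd1, the G1 cyclin, fell by 2.59 on the log2 scale (adjusted p = 3.64e-06), Egr2 by 1.47 and Myc by 1.23. With LPS alone 2 rose, 3 fell and 4 did not pass, where 18.4% of all genes passed. The falls included Etv5 (log2 -1.43 ± 0.18) and Myc (log2 -1.45 ± 0.19), and the rises were of Egr2 (log2 1.25 ± 0.28) and Phlda1 (log2 0.99 ± 0.22). With both agents against LPS alone 1 rose, 4 fell and 4 did not pass, where 28.9% of all genes passed, Myc being higher (log2 1.08 ± 0.19) and Ccnd1 lower (log2 -2.34 ± 0.29). In the interaction 2 were higher and 0 lower, where 3.37% of all genes passed (1.41% higher and 1.96% lower). They were Myc (log2 2.31 ± 0.27, adjusted p = 6.00e-05) and Etv5 (log2 2.17 ± 0.26, adjusted p = 8.98e-05). Etv5 had 9.13, 10.0 and 8.56 FPKM with both agents, below its 17.2, 19.8 and 15.5 FPKM with LPS. Myc had 27.1, 26.3 and 28.5 FPKM with both agents, 13.8, 16.7 and 13.7 with tunicamycin, 18.1, 9.02 and 11.6 with LPS, and 31.6, 38.5 and 37.6 in control cells.

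Of 12 Sprouty, Spred and other ERK feedback genes 7 were tested. With LPS 3 rose and 2 fell, where 18.4% of all genes passed, and with tunicamycin 1 rose and 4 fell, where 34.5% did. In the interaction 3 were higher, 1 was lower and 3 did not pass, where 3.37% of all genes passed (1.41% higher and 1.96% lower). The median log2 difference of the 7 was 1.46, against -0.03 for all genes tested. Spred1, an inhibitor of the Ras-ERK pathway, had 17.6, 21.9 and 22.5 FPKM with both agents, 5.96, 3.42 and 2.00 with tunicamycin, 14.0, 16.3 and 16.6 with LPS, and 26.3, 24.8 and 12.5 in control cells. Its interaction was log2 2.61 ± 0.40 (adjusted p = 0.000838). Rgs1 and Rgs2 are in the list although they encode regulators of G-protein signalling. They gave log2 1.56 ± 0.25 (adjusted p = 0.0012) and log2 1.58 ± 0.26 (adjusted p = 0.00143). Ier3, an NF-kB and ERK target, was lower in the interaction (log2 -1.10 ± 0.21, adjusted p = 0.00576), its rise being log2 1.60 with tunicamycin present and log2 2.71 without it. Rgs2 fell with LPS (log2 -1.86 ± 0.18, adjusted p = 7.53e-07), as did Spry2, a Sprouty inhibitor (log2 -1.56 ± 0.29, adjusted p = 0.000756).

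**Figure D5:**
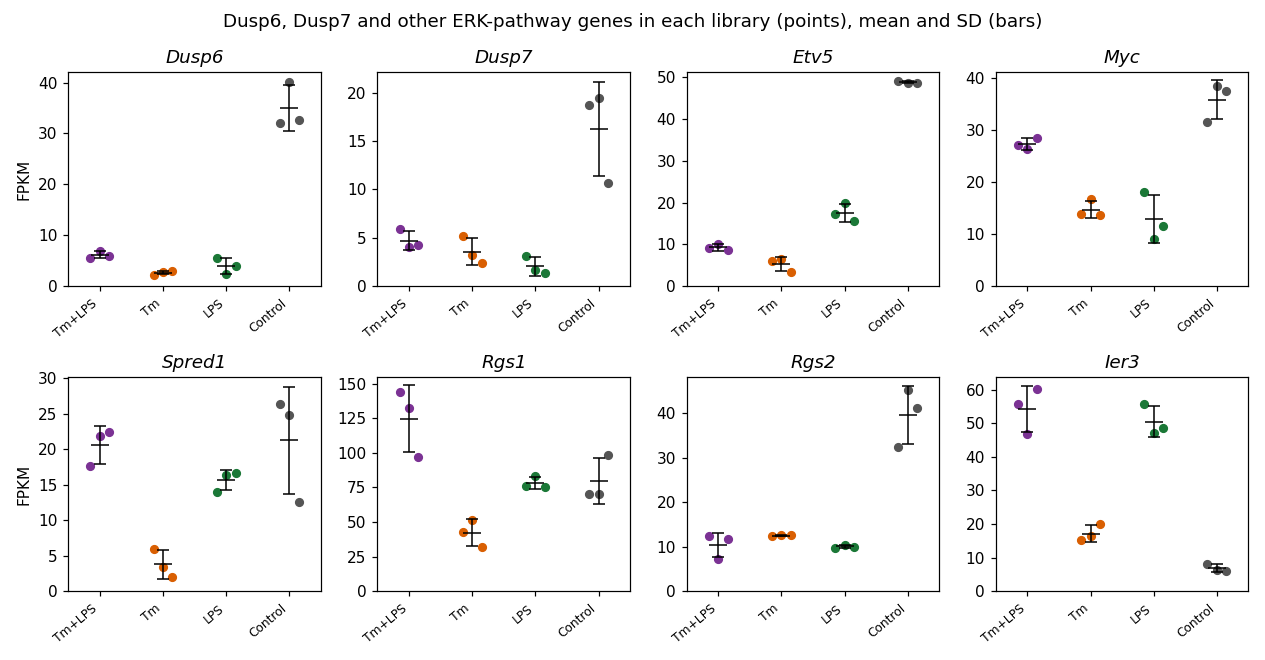
FPKM (vertical axis, its own scale for each gene) of Dusp6, Dusp7 and 6 other genes, in the 4 groups, with 1 point per library and bars for the mean and SD of 3. The 6 are from the ERK output and feedback lists and passed the interaction test. Dusp6, Dusp7, Etv5, Myc and Rgs2 are highest in control cells, Spred1 and Rgs1 are lowest with tunicamycin, and Ier3 is high in both groups with LPS.

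The shares of all genes that passed are those given above for each comparison. Of 8 MAP kinase genes tested, 1 rose and 0 fell with LPS, 1 rose and 1 fell with tunicamycin, 1 rose and 2 fell with both agents against LPS alone, and 0 passed the interaction in limma, also at an unadjusted p under 0.05. The LPS rise was of Mapk6 (log2 0.62 ± 0.12), and the tunicamycin changes were of Mapk7, the gene of ERK5 (log2 1.12 ± 0.19), and Mapk14, the gene of p38 alpha (log2 -0.47 ± 0.11). Mapk3, an ERK gene, had 35.8 ± 1.33, 35.8 ± 0.766, 39.9 ± 4.94 and 40.3 ± 3.69 FPKM with both agents, tunicamycin, LPS and in control cells (SD, n = 3 each). Of 16 MAP3 kinases and partners tested, 3 rose and 1 fell with LPS, where 18.4% of all genes passed, and 6 rose and 0 fell with tunicamycin, where 34.5% did. Counted in this list is Tnip1, which encodes a ubiquitin-binding inhibitor of NF-kB and no MAP3 kinase. Tnip1 rose with LPS (log2 2.72 ± 0.16) and with tunicamycin (log2 1.16 ± 0.16), and its interaction was log2 -1.15 ± 0.23 (adjusted p = 0.00733). Map3k8, the kinase Tpl2 that links TLR4 to ERK, rose with LPS (log2 2.70 ± 0.22, adjusted p = 8.81e-08) and with tunicamycin (log2 1.15 ± 0.22, adjusted p = 0.00077), and its interaction was log2 -1.59 ± 0.31 (adjusted p = 0.00763). Of 7 MAP kinase kinases 0 passed with LPS in limma (2 at an unadjusted p under 0.05) and 1 fell with tunicamycin, Map2k3 (log2 -0.67 ± 0.09), which encodes an activator of p38. Of 10 MAP kinase-activated kinases 2 rose and 2 fell with LPS, among them Mapkapk2, the p38 effector MK2 (log2 1.25 ± 0.19). With tunicamycin 1 rose and 0 fell. Scaffold genes gave 0 calls with LPS in limma (2 at an unadjusted p under 0.05) and 1 rise with tunicamycin of 7 tested. At an unadjusted p under 0.05 the other counts of 0 given for the ERK output, MAP kinase, MAP3 kinase and MAP kinase-activated kinase lists were 0 too.

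Of 12 other dual-specificity phosphatase genes tested, 0 rose in limma (1 at an unadjusted p under 0.05), 1 fell and 11 did not pass with LPS, and 3 rose, 2 fell and 7 did not pass with tunicamycin. The LPS fall was of Ssh2, a slingshot phosphatase that acts on cofilin, which had 12.4, 14.9 and 13.1 FPKM with both agents, 10.9, 12.0 and 14.0 with tunicamycin, 0.996, 0.524 and 1.05 with LPS, and 6.44, 7.23 and 5.28 in control cells. Its interaction was log2 2.11 ± 0.28 (adjusted p = 0.000226). With tunicamycin Ssh2, Dusp18 and Dusp23 rose (log2 0.86 ± 0.20, 1.01 ± 0.36 and 0.76 ± 0.20) and Dusp19 fell (log2 -0.86 ± 0.24). Of 10 other phosphatases that act on MAP kinases, 2 rose and 1 fell with LPS, and 4 rose and 1 fell with tunicamycin. Ptpn7, a tyrosine phosphatase of ERK and p38 in blood cells, fell in both (log2 -0.83 ± 0.13 and log2 -0.75 ± 0.13). Whether these lists differ from the members as groups was not tested.

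The genes nearest to a member in pattern were sought by the root mean square difference of the 4 centred group means on the log2 scale over 9884 candidate genes and 12 libraries. The means were not scaled, so this difference tends to be small for genes that change little. Its size cannot be compared between members with small and large changes. For Dusp1 they were Uba6 (0.04), Etv3 (0.04) and Ccnj (0.05), and for Dusp2 Edn1 (0.11), Adora2a (0.17) and Trex1 (0.18). Dusp4 had Tlr6 (0.13), Lpcat1 (0.15) and Pcdh7 (0.15) as its nearest genes. Among the genes nearest to Dusp6 were Mir719 (0.43) and Jun (0.47), at larger differences than those of the genes named for the other members. The group means of Mir719 rest on 3 libraries. It stood at 0, 38.6 and 107 FPKM in control cells and at 21.4, 0 and 0 with both agents. In every LPS and tunicamycin library it was listed at 0. For Dusp7 the nearest were Zfp36l2 (0.27), Cdk2ap1 (0.30) and Irf2bpl (0.31). For the low members they were Cep68 (0.02), Gen1 (0.03) and Sh2d1b1 (0.05) for Dusp5, Pnp (0.05), Alg13 (0.06) and Tnfaip8 (0.07) for Dusp14 and Arhgap35 (0.06), Mark2 (0.06) and Gpd2 (0.06) for Dusp16. Between Dusp6 and Dusp7 themselves the difference was 0.51, and between Dusp1 and Dusp4 it was 0.41.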

How the data were processed

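The authors deposited 1 table of FPKM values with 24346 gene symbols and 12 library columns, all of which matched a sample's title. Per the submitters' processing notes the mm10 build was used with Cufflinks 2.2.1, TopHat2 2.0.13, Bowtie2 2.2.3 and SAMtools 0.1.19. No source used here gives the annotation, whether strand was used or how libraries were scaled to each other. No 2 libraries were identical.

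From these FPKM, log2(FPKM + 1) of the 10311 genes with at least 1 FPKM in at least 3 libraries was fitted with 1 mean for each group, using all 12 libraries together (limma 3.58.1 on R 4.3.3, lmFit and trended eBayes). There were 7 contrasts (6 pairs of groups and the interaction), each with Benjamini-Hochberg adjustment over all genes tested. The code was tested on simulated data. Depth is unknown, so precision is the spread between replicates. Coordinates are from GENCODE M21 (GRCm38), which matched 23310 symbols and all 10 members. Figures were drawn with matplotlib 3.10.9 in Python 3.11.15.

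The 10 members and the pathway and marker lists were chosen with earlier results of these data known. All members are named. The pathway genes named in a comparison are among the 4 passing genes of their list with the largest change, not always all 4, and up to 3 nearest genes per member. A nearest gene of Dusp6 and a marker are not reported here. Mapk3 is shown although it is outside this rule. The alternatives were quantile normalization, median-of-ratios scaling, a filter at 5 FPKM or none, a pseudocount of 0.1, eBayes with no trend, a replicate block, a fit to the contrast's own libraries, and each library left out in turn.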

Additional observations from a re-analysis of the deposited data

Results flagged for a closer look

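The difference made by LPS was unequal with and without tunicamycin for 3 of the 8 tested phosphatase genes by the limma interaction test, where 3.37% of all genes passed. For Dusp6 the difference was log2 3.90 ± 0.31 (adjusted p = 1.10e-06), with 5.53 to 6.93 FPKM with both agents, 2.24 to 2.86 with tunicamycin, 2.40 to 5.43 with LPS and 32.0 to 40.2 in control cells. For Dusp7 it was log2 2.86 ± 0.41 (adjusted p = 0.000465), and for Dusp2 log2 -1.61 ± 0.36 (adjusted p = 0.0173). The time that cells with tunicamycin alone were exposed is not given, so LPS and any difference in exposure cannot be told apart here. Of the Dusp6 and Dusp7 values at least log2 1.07 and 0.37 follow from the floor of the log2(FPKM + 1) scale. With a pseudocount of 0.1 the Dusp6 and Dusp7 interactions were log2 4.41 and 3.42.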

How the results depend on the processing

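Of 419 member fold changes under other settings 409 kept their direction and their side of the threshold, as did 639 of 672 with a library left out. Directions reversed only for changes that had not passed. With quantile normalization Dusp1 with both agents against control cells was log2 -0.058 and Dusp5 with tunicamycin against LPS log2 -0.090. Leaving out each library in turn gave log2 -0.052 to 0.17 for Dusp1, -0.012 to 0.27 for Dusp4 and -0.083 to 0.62 for Dusp14 with both agents against control cells, -0.16 to 0.075 for Dusp16 with tunicamycin against control cells, -0.18 to 0.24 for Dusp5 with tunicamycin against LPS, and -0.37 to 0.34 for the Dusp14 interaction. With quantile normalization the share of higher calls among all genes was 53.5% for tunicamycin against LPS, against 47.1% without it, and 44.1% for both agents against control cells, against 50.6%. With a filter at 5 FPKM, which leaves 5 members, 3 passed for tunicamycin against LPS and 3 for both agents against control cells. With a library left out the genes called numbered 229 (without tunicamycin replicate 3) to 353 for the interaction, against 347 with all libraries, and 1064 (without tunicamycin replicate 2) to 1652 for both agents against tunicamycin, against 1618, and the members called 5 to 7 for LPS against control cells, 3 to 4 for tunicamycin against control cells, 4 to 6 for tunicamycin against LPS, 5 for both agents against control cells, 3 to 5 against LPS alone and 4 against tunicamycin alone, and 2 to 3 for the interaction.

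The groups share replicate numbers. The deviations of same-numbered libraries correlated by -0.04 to 0.09, with 0 of 18 pairs over 0.1, so the numbers were not taken as pairs. Differently numbered libraries gave -0.11 to 0.05, and 8 of 12 libraries correlated best with their own number, which is a hint of a shared effect from the data and not from the design. With the replicate number as a block 1858 genes passed for LPS against control cells, 3552 for tunicamycin against control cells, 4199 for both agents against control cells, 2993 for both agents against LPS, 1628 for both agents against tunicamycin, 3839 for tunicamycin against LPS and 348 for the interaction. The block added Dusp1 for both agents against tunicamycin (adjusted p = 0.0409) and Dusp7 for tunicamycin against LPS (0.0415), and the other member calls were the same. Dusp7 for tunicamycin against LPS also passed without LPS replicate 1 (0.045), as did Dusp6 without LPS replicate 2 (0.029). Read depth is unknown, and below about 1 FPKM the libraries of a group spread too widely for small differences to be detectable. Dusp8 was below 1 FPKM in all libraries, and Dusp5, Dusp10 and Dusp14 were in most. Dusp16 was below it in some tunicamycin and control libraries, and Dusp5 was above it in all control libraries.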
